A study of Homo sapiens with 2 samples.

Results

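The ephrin receptors and ephrins described here are 10 genes, chosen by name from the 23686 gene symbols measured in A427 cells: the A-type receptors EPHA2, EPHA3, EPHA4, EPHA5 and EPHA7, the B-type receptors EPHB2 and EPHB4, and the ephrins EFNA1, EFNB1 and EFNB2. A427 is a cell line of human non-small cell lung carcinoma whose cells grow either on the dish surface or as spheres in suspension. In the series title it is CTNNB1-mutated (CTNNB1 encodes beta-catenin), while the sample labels read WT for genotype. Floating, sphere-forming cells and adherent cells were cultured in RPMI 1640 with 5% fetal bovine serum, with no drug or other agent named, and were collected separately. Poly(A) RNA of each was sequenced in 1 library, of 27148842 gene-assigned reads for floating and 26384670 for adherent cells. With 1 library per growth form no test across genes was made and p-values are left out. A fold sets 1 library against the other, and its 95% interval reflects read counting alone, since cultures were not repeated.

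EPH receptors are receptor tyrosine kinases whose ligands, the ephrins, sit on the surface of neighbouring cells, so that signalling needs contact between cells. Ephrin-A ligands are held in the membrane by a lipid anchor and bind mainly A-type receptors, whereas ephrin-B ligands cross the membrane and bind mainly B-type receptors. Receptors signal into their own cell through small GTPases and kinases, and ephrins signal back into theirs. The family guides axons, sets tissue boundaries and controls how cells adhere, repel and sort. In lung carcinoma EPHA2 is often abundant, and EPHA3 and EPHA5 are recurrently mutated.

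The start regions of the 4 receptors with the highest levels are shown here, because these genes carry most of the receptor signal and differ in direction. Each window runs from 250 bases before to 50 bases after the first-listed gene start in RefSeq (GRCh38.p14, a later build than the hg19 of the counts), 5′ to 3′ along the gene. Capitals mark the motifs found: the CRE (cAMP response element, TGACGTCA), the GC box (GGGCGG) and the CCAAT box (CCAAT), on either strand. None of the marked motifs overlap.

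EPHA2, chr1:16156020-16156319, minus strand: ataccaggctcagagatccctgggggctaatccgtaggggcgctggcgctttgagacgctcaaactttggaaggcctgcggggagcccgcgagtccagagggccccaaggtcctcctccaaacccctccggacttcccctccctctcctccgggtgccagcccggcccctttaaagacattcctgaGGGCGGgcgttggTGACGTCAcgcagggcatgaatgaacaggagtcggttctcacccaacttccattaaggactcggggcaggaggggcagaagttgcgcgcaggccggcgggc

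EPHB4, chr7:100827474-100827773, minus strand: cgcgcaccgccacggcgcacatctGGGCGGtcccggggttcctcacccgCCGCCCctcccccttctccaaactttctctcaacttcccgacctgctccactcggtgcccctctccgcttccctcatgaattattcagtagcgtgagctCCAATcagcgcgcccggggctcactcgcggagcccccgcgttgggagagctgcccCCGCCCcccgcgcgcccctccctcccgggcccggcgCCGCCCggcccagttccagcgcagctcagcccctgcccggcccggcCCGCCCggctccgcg

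EPHA7, chr6:93419510-93419809, minus strand: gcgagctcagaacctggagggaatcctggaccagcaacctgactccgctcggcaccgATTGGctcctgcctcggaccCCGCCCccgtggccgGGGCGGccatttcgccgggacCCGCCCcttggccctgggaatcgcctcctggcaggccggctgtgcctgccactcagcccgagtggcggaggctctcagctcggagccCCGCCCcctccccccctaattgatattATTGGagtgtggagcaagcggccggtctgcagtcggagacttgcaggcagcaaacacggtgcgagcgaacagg

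EPHA5, chr4:65670440-65670739, minus strand: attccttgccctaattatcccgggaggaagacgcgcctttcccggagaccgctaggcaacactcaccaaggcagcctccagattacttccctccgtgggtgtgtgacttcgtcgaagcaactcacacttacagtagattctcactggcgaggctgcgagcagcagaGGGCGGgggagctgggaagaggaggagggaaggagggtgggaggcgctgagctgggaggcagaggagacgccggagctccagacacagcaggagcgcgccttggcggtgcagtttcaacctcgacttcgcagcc

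The EPHA2 window holds a full CRE, beginning at base 200 of the window, and 1 GC box. The windows of EPHB4 and EPHA7 hold 5 and 4 GC boxes, and EPHA5 has 1. Searching all 26 windows listed for 20 of the 22 EPH and EFN genes, the full CRE occurred in EPHA2 alone, against 1.85% of all 35116 promoter windows. A GC box occurred in 24 of 26, against 45.0% of all windows, and the CCAAT box in 11 of 26, against 34.6%. These windows also had a median GC content of 68.7%, against 58.7% over all windows. The AP-1 motif TGANTCA was found in 0 of 26 windows (7.71% of all windows) and the TCF/LEF motif CTTTGNT in 1, a further EPHA7 start (15.4% of all windows). Among the 26, the EPHB2 windows nearly coincide and some EPHA7 windows overlap, so that a motif there can be counted more than once. A match describes the letters only, and which start A427 uses was not analysed here.

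Across the members, EPHA5, EPHA7 and the scarce EPHA3 were lower in floating cells, EPHA2 and the scarce EPHA4 were higher, and the B-type receptors and ephrins differed by at most 1.30-fold. Levels are in TPM, transcripts per 1000000 in a library, which allows for gene length and lets genes be compared. In floating cells EPHA2 led with 61.2 TPM, followed by EPHB4 with 42.7, EPHA7 with 26.6 and EPHA5 with 11.7 TPM. In adherent cells EPHB4 with 51.1, EPHA2 with 49.2 and EPHA7 with 48.5 TPM stood together with overlapping counting intervals, and EPHA5 followed with 28.6 TPM. So 3 receptors shared the highest level in adherent cells, whereas in floating cells the intervals of the first 4 were apart. Below them in both libraries came EFNA1, EFNB1, EFNB2 and EPHB2. The interval of EFNB2 overlapped that of EPHB2 in each library, and that of EPHA5 overlapped EFNA1 in floating cells. EPHA3 and EPHA4 were under 1 TPM in both libraries and changed places at the bottom of the order.

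**Figure D1:**
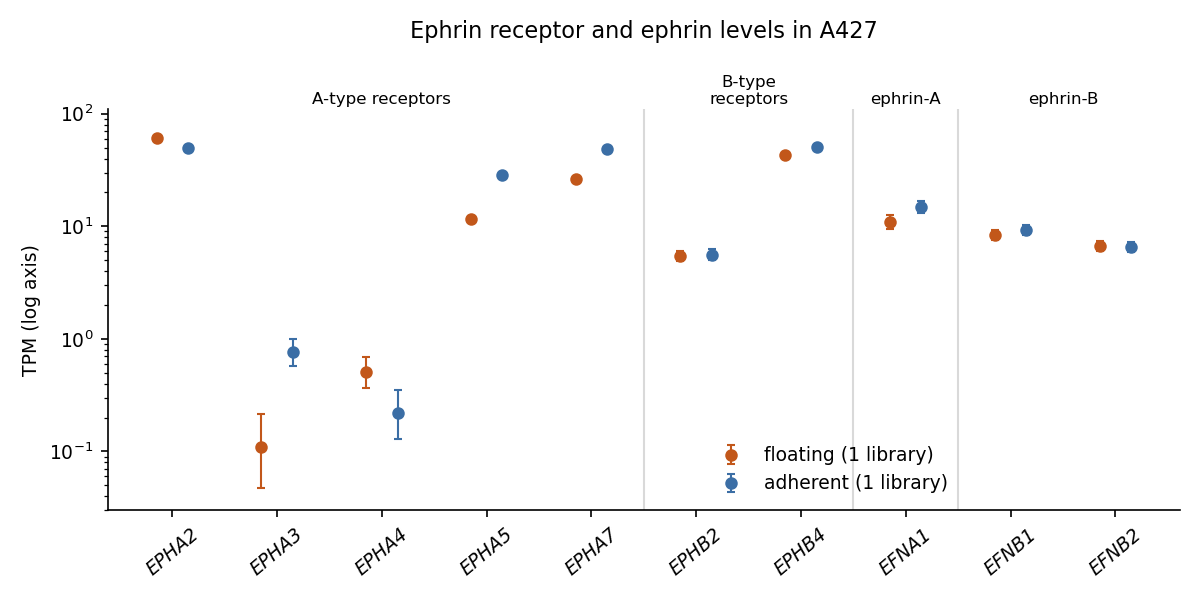
Levels of the 10 members in TPM on a log axis, with the floating library left of the adherent one for each gene; bars are 95% counting intervals. EPHA5 stands at 11.7 TPM in floating and 28.6 TPM in adherent cells, while EFNB2 stands at 6.73 TPM in floating and 6.58 TPM in adherent cells.

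All 10 members reached 1 CPM (reads per 1000000 of scaled library size) in at least one library, as did 13131 genes in all, which form the background. Of the members, EPHA3 and EPHA4 did so in 1 library only, the one where each was higher. The direction of their ratios thus followed from how they passed. A gene was called where its fold reached 2 and its interval left out a log2 ratio of 0. By that rule 3 of 10 members were called, EPHA3 and EPHA5 as lower and EPHA4 as higher in floating cells, against 2.03% of all tested genes. In detail, 0.754% of tested genes were called lower and 1.28% higher. Among genes of at least 10 CPM in a library, where EPHA5 was the called member among 7 members, the share called was 0.75%, and 0.325% were called lower. With a 4-fold threshold EPHA3 alone of the members was called, against 0.305% of tested genes, and with 1.5-fold EPHA7 joined the 3, against 6.15%. Intervals lay above 0 for 2 members and below 0 for 5, against 25.5% and 25.6% of tested genes. The median log2 ratio of the members was -0.16, against -0.0048 over all tested genes.

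EPHA2 binds ephrin-A1 and is a receptor of epithelial cells. It had 3089 reads (61.2 TPM) in floating cells and 2325 reads (49.2 TPM) in adherent cells, 1.28-fold higher in floating cells (interval 1.22 to 1.36). The interval excludes no difference, but the size is moderate, and 1136 of 13131 tested genes had a ratio at least as high. EPHA4, which can bind ephrins of both classes, had 42 reads (0.51 TPM) in floating and 17 reads (0.22 TPM) in adherent cells. It was 2.35-fold higher (interval 1.33 to 4.47), at a level near the detection limit, and on log2(TPM + 0.1) its ratio of 0.93 fell short of 2-fold.

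EPHA5, best known as a receptor of developing neurons, had the clearest difference. It had 1190 reads (11.7 TPM) in floating cells and 2735 reads (28.6 TPM) in adherent cells, which made it 2.38-fold lower with floating growth (interval 2.22 to 2.55). Among the 10139 genes of at least 10 CPM in a library, 11 including EPHA5 had a ratio at least as low. EPHA7, another ephrin-A receptor with a role in the developing brain, had 2299 reads (26.6 TPM) in floating and 3926 reads (48.5 TPM) in adherent cells. This was 1.77-fold lower (interval 1.68 to 1.86), short of 2-fold, and 65 of the same 10139 genes lay at least as low. EPHA3 had 8 reads (0.11 TPM) in floating and 54 reads (0.77 TPM) in adherent cells, 6.63-fold lower with a wide interval of 3.30 to 17.0. EPHA5 and EPHA7 also shifted against each other: EPHA5 reads per EPHA7 read were 0.518 in floating and 0.697 in adherent cells, a ratio of 0.743 (interval 0.682 to 0.81).

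The B-type members differed less than the A-type members. EPHB4, a receptor for ephrin-B2 known from the parting of arteries and veins, had 2374 reads (42.7 TPM) in floating and 2665 reads (51.1 TPM) in adherent cells, 1.16-fold lower (interval 1.10 to 1.23). EPHB2, which in intestinal epithelium is a target of beta-catenin and TCF, had 342 reads (5.46 TPM) in floating and 328 reads (5.59 TPM) in adherent cells. Its log2 ratio was 0.01 (interval -0.21 to 0.23), and the sign turned with the scaling, to -0.03 on TPM and -0.0027 with upper-quartile scaling. Any difference in EPHB2 was thus not detectable at this depth.

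**Figure D2:**
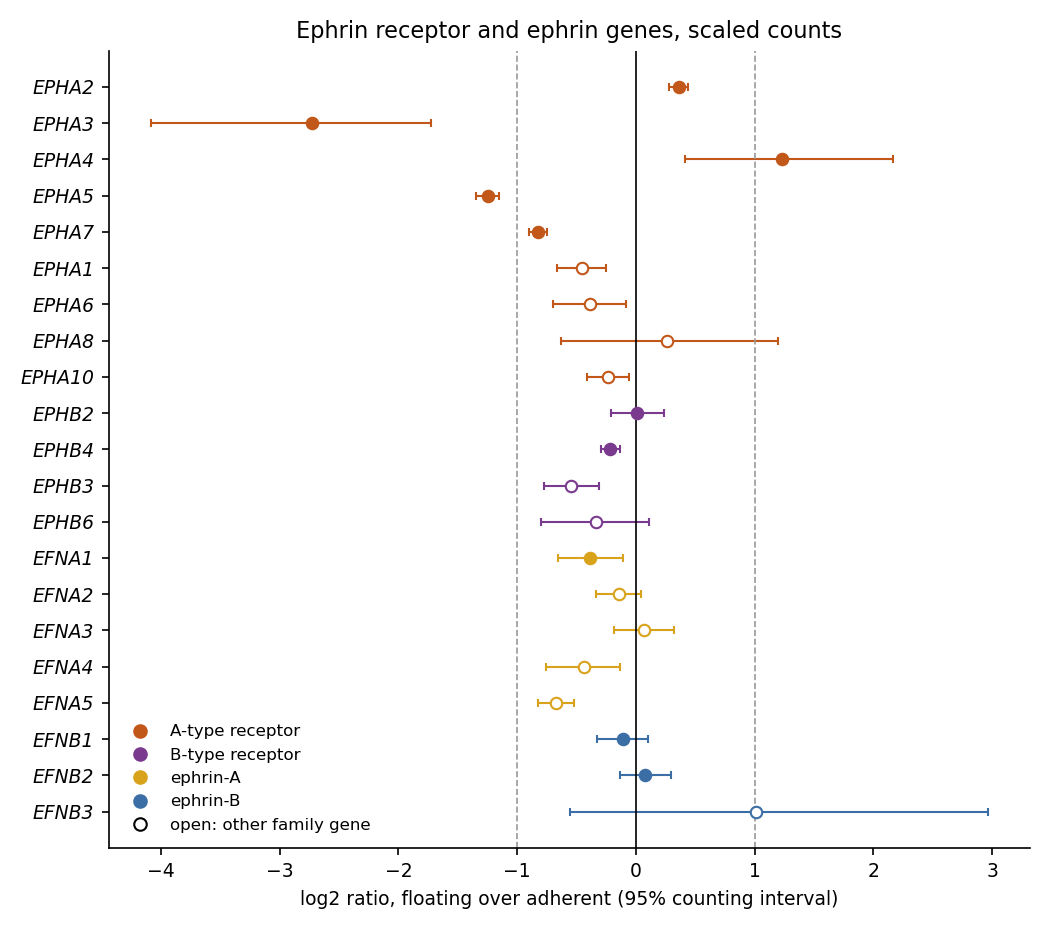
Log2 ratio of floating over adherent cells for 21 EPH and EFN genes, with 95% counting intervals (EPHB1, with 1 read in floating and 3 in adherent cells, is left out); filled points are the 10 members, open points other family genes, and dashed lines mark 2-fold. EPHA5 lies at -1.25, EPHA7 at -0.82 and EPHA2 at 0.36, and the B-type members lie from -0.22 to 0.01; EPHA3 and EPHA4 have few reads and wide intervals.

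A-type receptors took a smaller share of receptor reads in floating cells. Log2 ratios of the A-type receptors above 1 CPM in both libraries ran from -1.25 (EPHA5) over -0.82 (EPHA7) to 0.36 (EPHA2), and those of the B-type receptors from -0.22 to 0.01. EPHA3 and EPHA4 passed the filter only in the library where each was higher. With them, 2 of 5 A-type intervals lay above 0 and 3 below, against 25.5% and 25.6% of all tested genes. The median log2 ratio of these 5 was -0.82. The 2 B-type members had a median of -0.10. Among tested receptors outside the members, the median was -0.38 for A-type and -0.44 for B-type genes. Summed A-type reads were 6628 in floating and 9057 in adherent cells, and summed B-type reads 2716 in floating and 2993 in adherent cells. A-type receptors thus had 2.44 reads per B-type read in floating and 3.03 in adherent cells, a ratio of 0.807 (exact interval 0.758 to 0.858). This ratio is taken within each library, so that no scaling between libraries alters it.

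That summary rests on single genes. Without EPHA5 the ratio was 0.948 with an interval of 0.889 to 1.01, and without EPHA2 it was 0.579 (0.542 to 0.619). Over all EPHA and EPHB genes it was 0.842 (0.795 to 0.891). On summed TPM, which gives long and short transcripts equal weight, A-type receptors stood at 100.1 TPM in floating and 127.3 TPM in adherent cells, and B-type receptors at 48.1 TPM in floating and 56.7 TPM in adherent cells. The ratio of ratios was then 0.927 (0.949 over all EPHA and EPHB genes), and it passed 1 without EPHA5 (1.06) or without EPHA7 (1.10). The direction of the A-type to B-type comparison on TPM therefore turned on either of these genes. Within the A-type receptors, EPHA3, EPHA5 and EPHA7 together had 1.12 reads per read of EPHA2 and EPHA4 in floating and 2.87 in adherent cells, grouped here after their directions were seen, as a description.

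**Figure D3:**
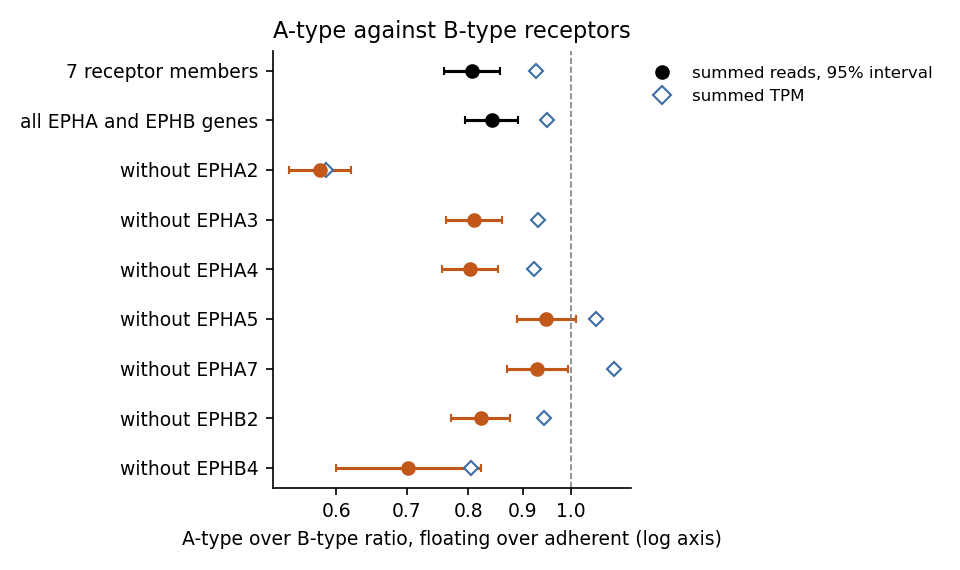
Ratio of A-type to B-type receptor reads in floating cells over that in adherent cells, on a log axis, for the 7 receptor members, for all EPHA and EPHB genes and with each receptor left out; circles are summed reads with exact 95% intervals and diamonds are summed TPM. The 7-receptor value of 0.807 moves to 0.948 without EPHA5 and to 0.579 without EPHA2.

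The make-up of the receptor pool shifted accordingly. EPHA2 made up 41.3% of the summed TPM of the 7 receptors in floating cells and 26.7% in adherent cells. EPHA7 held 17.9% in floating and 26.3% in adherent cells, and EPHA5 held 7.87% in floating and 15.6% in adherent cells. EPHB4 kept a like share, 28.8% in floating and 27.8% in adherent cells. The sum itself was 148.2 TPM in floating and 184.0 TPM in adherent cells. EPHA2 and EPHB4, the A-type and B-type receptors with the highest floating levels, parted: EPHA2 had 1.30 reads per EPHB4 read in floating and 0.872 in adherent cells, a ratio of 1.49 (interval 1.38 to 1.61). In a bulk sample, fewer cells with a transcript and less of it per cell cannot be told apart.

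**Figure D4:**
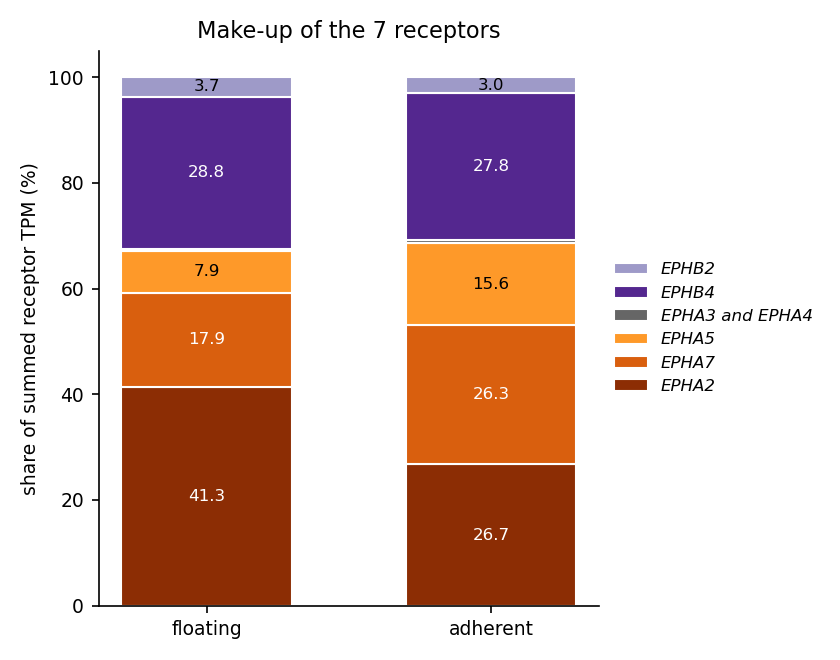
Share of each receptor in the summed TPM of the 7 receptor members, in percent, for the floating (left) and adherent (right) library; EPHA3 and EPHA4 are drawn together. EPHA2 takes 41.3% in floating and 26.7% in adherent cells, and EPHB4 takes 28.8% in floating and 27.8% in adherent cells.

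Among the ligands, EFNA1 was lower in floating cells and neither ephrin-B gene differed beyond counting error. EFNA1, which encodes a ligand of EPHA2, had 199 reads (11.0 TPM) in floating and 251 reads (14.8 TPM) in adherent cells, 1.30-fold lower (interval 1.08 to 1.58). EPHA2 reads per EFNA1 read were 15.5 in floating and 9.26 in adherent cells, a ratio of 1.68 (interval 1.37 to 2.04). Receptor and ligand of this pair thus lay on opposite sides of no difference. EFNB1, whose loss causes craniofrontonasal syndrome in humans, had 353 reads (8.42 TPM) in floating and 368 reads (9.37 TPM) in adherent cells, with a log2 ratio of -0.11 (interval -0.32 to 0.11). EFNB2, the ligand of EPHB4, had 378 reads (6.73 TPM) in floating and 346 reads (6.58 TPM) in adherent cells, with a log2 ratio of 0.08 (interval -0.14 to 0.29). EPHB4 had 6.28 reads per EFNB2 read in floating and 7.70 in adherent cells, a ratio of 0.815 (interval 0.695 to 0.956).

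Of the other 12 EPH and EFN genes, 9 reached 1 CPM, and 0 of these were called at 2-fold. Intervals lay below 0 for 6 of the 9 and above 0 for 0, against 25.6% and 25.5% of all tested genes, with a median log2 ratio of -0.38. The ligand EFNA5 was 1.59-fold lower (interval 1.43 to 1.77), with 578 reads in floating and 889 in adherent cells. EPHB3, like EPHB2 a beta-catenin target in the intestine, was 1.46-fold lower (1.24 to 1.71), with 269 reads in floating and 379 in adherent cells. The receptors EPHA1 (log2 ratio -0.46), EPHA6 (-0.38) and EPHA10 (-0.23) and the ligand EFNA4 (-0.44) also had intervals below 0. In RefSeq (GRCh38.p14), EFNA4 and EFNA3 overlap read-through genes, and how the authors' counting treated them is not given in what was used here. EPHA1, EPHA2 and EPHA5 overlap antisense genes and EPHB4 overlaps SLC12A9. EPHA4, EPHA6, EPHA10, EPHB1, EPHB2, EFNA4, EFNA5 and EFNB2 overlap noncoding genes or pseudogenes. These overlaps are of whole gene spans, and shared exons were not looked at. Since the use of strand is not given either, whether reads from such neighbours were counted cannot be told. Intervals of EFNA2 (-0.14), EFNA3 (0.07) and EPHB6, which lacks an active kinase (-0.34), included 0. EPHA8 (25 reads in floating and 20 in adherent cells) and EFNB3 (11 reads in floating and 5 in adherent cells) were too scarce to compare, as was EPHB1 with 1 read in floating and 3 in adherent cells.

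With the members, 19 of the 22 family genes reached 1 CPM. Intervals lay below 0 for 11 and above 0 for 2, against 25.6% and 25.5% of all tested genes, and the median log2 ratio was -0.34, against -0.0048 over all tested genes. These counts include EPHA3 below 0 and EPHA4 above 0, whose directions followed from how they passed the filter. All ephrin-A genes together had 2.24 reads per ephrin-B read in floating and 2.90 in adherent cells, a ratio of 0.774 (interval 0.684 to 0.875). On summed TPM this ratio was 0.830. Summed ephrin-A reads were 1662 in floating and 2082 in adherent cells. Most of that difference came from EFNA5, with 578 reads in floating and 889 in adherent cells. The ratio was not taken without EFNA5, so it may rest on this gene. The estimates of all 22 genes were whole numbers in both libraries.

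**Figure D5:**
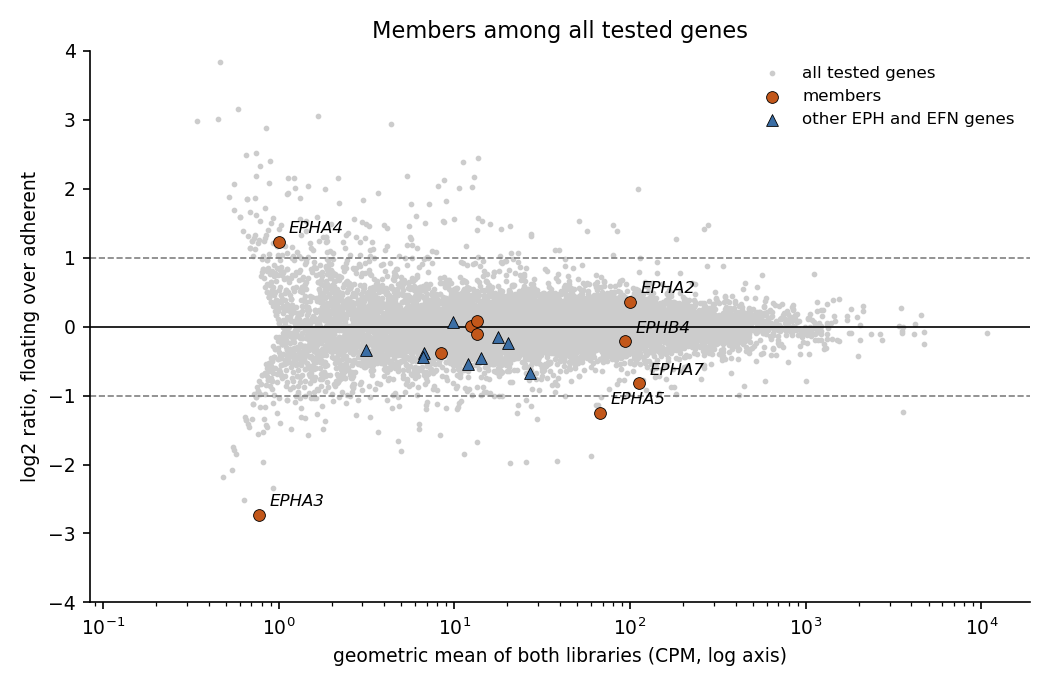
Log2 ratio of floating over adherent cells against the geometric mean level in CPM (log axis) for all tested genes (grey), the members (circles) and other EPH and EFN genes of at least 1 CPM (triangles); dashed lines mark 2-fold, and 7 tested genes lie outside the range drawn. EPHA5 lies beyond the band of genes of like level, at -1.25, while EPHA3 and EPHA4 lie at the low end where ratios scatter widely.

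Genes that act with the receptors and ephrins, inside the cell or at its surface, showed no common direction. Of 57 listed, 53 reached 1 CPM, and 0 of them were called at least 2-fold either way. Intervals lay above 0 for 16 and below 0 for 18, against 25.5% and 25.6% of all tested genes, and the median log2 ratio was -0.0007. Among regulators of small GTPases and their kinases, 2 of 15 had intervals above 0 and 7 below. TIAM1, an exchange factor for Rac, was 1.57-fold higher (interval 1.44 to 1.72) and the cofilin kinase LIMK1 1.20-fold higher. ARHGEF16, an exchange factor that binds EPHA2, was 1.30-fold lower (1.20 to 1.42), and ROCK1, a kinase driven by RhoA whose estimate has decimals, 1.10-fold lower.

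In the next 3 lists, counts are likewise to be read against 25.5% of tested genes with intervals above 0 and 25.6% below. Among kinases and adaptors, 8 of 18 had intervals above 0 and 5 below. The adaptors GRB10 and SHC1 were 1.29-fold and 1.16-fold higher, while the adaptor GRB7 was 1.37-fold (interval 1.20 to 1.56) and INPPL1, the lipid phosphatase SHIP2 that binds EPHA2, 1.24-fold lower. Among phosphatases and proteases, 4 of 10 had intervals above 0 and 3 below. The protease ADAM10, which cleaves ephrins bound to EPH receptors, was 1.25-fold lower (1.19 to 1.31), with 55.2 TPM in floating and 71.2 TPM in adherent cells. The phosphatase PTPN13 was 1.31-fold lower, while ADAM9 was 1.16-fold and the phosphatase PTPN11 1.14-fold higher. Among partners of the ephrin-B tail, 2 of 10 had intervals above 0 and 3 below. The polarity protein PARD6B was 1.42-fold (1.33 to 1.52) and STAT3 1.25-fold higher, while CNKSR1 was 1.28-fold and the PDZ protein SDCBP 1.14-fold lower.

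The libraries carried both epithelial and mesenchymal transcripts. EPCAM stood at 581.8 TPM in floating and 615.3 TPM in adherent cells, and VIM at 4850 TPM in floating and 5264 TPM in adherent cells. Over 6 epithelial markers the summed level was 1791 TPM in floating and 1304 TPM in adherent cells. Of these, KRT18 stood at 612.5 TPM in floating and 342.5 TPM in adherent cells, and KRT8 at 581.1 TPM in floating and 326.6 TPM in adherent cells. CDH1, in the same list, was lower, with 13.9 TPM in floating and 18.9 TPM in adherent cells, and of the 4 tested epithelial markers 2 had intervals above 0 and 2 below. KRT19, with 22 reads in floating and 8 in adherent cells, and KRT7, with 3 in floating and 4 in adherent cells, did not reach 1 CPM. Over 5 mesenchymal markers the summed level was 4894 TPM in floating and 5315 TPM in adherent cells, nearly all of it VIM. Of the others, CDH2, FN1 and TWIST1 had intervals below 0, and that of ZEB1 included 0. Of 6 lung lineage markers only NAPSA reached 1 CPM, and SFTPA1, SFTPC and SCGB1A1 had 0 reads in both libraries. Markers of leukocytes, endothelium and erythroid cells summed to at most 3.19 TPM per list and library, with CD3E, CDH5, HBA1 and HBA2 at 0. Within these lists ITGAM had 39 reads in floating and 10 in adherent cells, and VWF had 44 in floating and 14 in adherent cells. PTPRC, also in the leukocyte list, went the other way, with 121 reads in floating and 159 in adherent cells. KRT8, KRT18 and EPHA2 were higher in floating cells, while CDH1 was lower. EPCAM was lower by 1.03-fold only, with a log2 interval of -0.0746 to -0.0006 that another scaling could move across 0. Any link between these differences was not tested.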

How the data were processed

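Poly(A) RNA of floating and of adherent A427 cells was sequenced in 1 library each. Per the submitters' processing notes, RSEM 1.3.3, STAR 2.5.3a and FastQC 0.11.1 were used on build hg19. For the gene annotation, the settings and strand, the sources used here give nothing. The authors deposited estimated counts per gene symbol without normalization, and TPM, which the authors scaled by length and library. Columns were assigned by their names, which are the sample titles. Estimated counts were rounded, and edgeR 4.0.16 (R 4.3.3) gave TMM scaling factors, which trim extreme genes. Log2 ratios were taken after adding 0.5 to each count and dividing by the scaled library size. Genes that reached 1 CPM in a library, about 26 reads in the adherent one, were tested. The 95% interval is the exact Clopper-Pearson interval given a gene's summed reads. TPM intervals are exact Poisson intervals of the reads, and ratios of summed reads have exact conditional intervals. No molecular identifiers are mentioned in the sources used here, so reads may repeat molecules, and intervals cover counting error only. With 1 library per group, neither edgeR's test nor DESeq2's was run. The calculation was tested on simulated counts.

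The members and gene lists were chosen with earlier results of these data known. All members were named, as were other EPH and EFN genes with at least 10 reads. Per effector list, up to 2 genes each way by the interval bound farthest from 0 were named, and any gene called. Groupings and ratios of single genes, and EPHB1, were chosen after their values were seen. With 2 libraries, a pattern over samples is 1 ratio, so no gene is named as like a member. Alternatives were scaling by upper quartile, by library totals and by DESeq2 1.42.0 size factors, log2(TPM + 0.1), a prior count of 5, no filter, at least 5 CPM, other fold thresholds and other receptor sets. Removing a lowess trend over effective length (reads per TPM) was added after seeing the data. Calculations used Python 3.11.15, numpy 2.4.6, scipy 1.17.1, pandas 2.3.3 and statsmodels 0.14.6. Promoter sequences came from RefSeq.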

Additional observations from a re-analysis of the deposited data

How the results depend on the processing

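No paired analysis was possible because each growth form has 1 library, and for the same reason no replicate could be left out. Of the members' ratios under the 3 other scalings, TPM, a prior count of 5, both filters and the length correction, those of EPHB2 changed sign, to -0.0027 (upper quartile) and -0.0333 (TPM), and EPHA4 missed 2-fold on TPM (0.93). With at least 5 CPM, EPHA3 and EPHA4 left, so that 1 member was called and 1 had an interval above 0. At a 4-fold threshold 1 member was called. The A-type to B-type ratio was 0.927 on summed TPM and 0.948 without EPHA5, where the interval included 1. The other 44 comparisons of counts, medians and this ratio with an alternative stayed within the set limits. For counts the limit was a factor of 1.5. Called members thus passed with 2 on TPM and 4 at 1.5-fold, against 3 in the main setting. Intervals below 0 passed with 4 at 5 CPM, against 5. Medians had to keep their sign and stay between the medians of the receptors' interval bounds. For other receptor sets the limit was that the ratio stayed below 1 with an interval that left out 1. The ratios without EPHA2 (0.579), without EPHB4 (0.702) and without EPHA7 (0.930) are thus among the 44, though they moved. The cause of these shifts was not tested, apart from the filter, which leaves out low genes. On TPM no counting interval was given. The depth leaves differences in EPHB2, EFNB1 and EFNB2 undetected, and a spread between cultures, not measured here, would widen every interval.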
